A study of Drosophila melanogaster with 12 samples.

Results

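The mitochondrial ribosomal proteins were followed in whole heads of Drosophila melanogaster, in the wild type and a mutant, each without and with 50 mM lithium. They were taken as the genes whose symbol starts with mRpL (large subunit) or mRpS (small subunit), through probe sets that the array annotation ties to exactly 1 gene. This gave 71 probe sets and 69 genes, 44 of the large and 25 of the small subunit, among the 11982 genes that the array names singly. Where a gene had several, the probe set of highest mean signal stood for it, a choice that used no difference between groups. All 69 passed the filter on dim probe sets.

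The mitochondrial ribosome, or mitoribosome, sits in the matrix and translates the few proteins that the mitochondrial genome encodes, all of them subunits of the respiratory chain and ATP synthase. Its own proteins are encoded in the nucleus, made in the cytosol and imported. Many descend from proteins of the bacterial ribosome and carry the bacterial number, and the higher numbers were mostly given to proteins that mitochondria added. In the fly the family has a known tie to seizures: mutants of tko, which encodes the small-subunit protein S12, are paralysed by mechanical shock.

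RNA was measured on 12 Affymetrix arrays in 4 groups of 3. CS_0 is the untreated wild type, CS_50 the wild type given 50 mM lithium, Shu_0 the untreated mutant Shu, and Shu_50 the mutant at 50 mM, a dose whose labels leave the drug unnamed while the title of the series names lithium. The annotation gives Shu as a name of para, the voltage-gated sodium channel of fly neurons. The labels give no sex, no age and no length of treatment, and do not say whether Shu and CS share a genetic background, so the mutation and the background cannot be told apart. For 1 array the labels disagree with each other: the title makes it replicate 2 of CS_50 and the description calls it sample 1.

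The signal is the deposited intensity of a probe set, and it has no meaning between genes because each probe binds with its own strength. Differences are in log2(signal + 6.26), errors after ± are limma's standard errors with n = 3 arrays per group, and "called" means an adjusted p (Benjamini-Hochberg, all 11261 probe sets tested) under 0.05. Nothing says that the 3 arrays of a group came from separate cultures, so the p-values measure only the spread between these samples, and precision is limited by the number of arrays. Array medians lay between 23.9 and 25.8, and replicates correlated at 0.985 to 0.989. CS_0 replicate 3 and Shu_0 replicate 1 stood farthest apart on the first principal component (-20.5 and 17.9, 18.1% of the variance). On that component all CS arrays lay below zero and all Shu arrays above. All 7 photoreceptor markers, the 4 neuronal, the 3 glial, the 7 muscle and the 7 fat body markers measured passed the filter. The signal of para was 72.6, 77.9 and 70.1 in CS_0, 80.7, 87.4 and 85.8 in CS_50, 87.1, 99.9 and 82.8 in Shu_0, and 118, 102 and 107 in Shu_50. Averaged over treatments para was higher in Shu by 0.31 ± 0.07 (limma adjusted p = 0.0175).

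The comparison of untreated genotypes, Shu_0 with CS_0, asked how the mutant's mitoribosomal transcripts differ at rest. The differences were small and leaned upward in both subunits: 55 of the 69 genes were above zero and 14 below, and the median was 0.094, or 6.73%, beside 0.010 over all probe sets tested. The 1 gene called was mRpS7, which rose, where the calls took 2.11% of all probe sets upward and 2.96% downward. At an unadjusted p under 0.05, 15 genes lay higher and 0 lower, against 9.94% and 10.1% of all probe sets. The arrays of the groups did not overlap for 18 genes, 17 of them higher in Shu_0, where 23.2% of all probe sets had no overlap. The differences ran from -0.14 to 0.44, and 64 of the 69 had a 95% interval wholly within 0.5 log2 units (1.41-fold) of zero.

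mRpS7 belongs to the head of the small subunit, close to the path of the mRNA. The gene (Entrez 34412) read 369.6, 366.0 and 354.2 in CS_0 and 441.5, 435.1 and 456.2 in Shu_0. Every mutant array lay above every wild-type array, by more than the range within either group. The difference was 0.29 ± 0.06, or 1.22-fold (limma adjusted p = 0.00977). The call was lost without the intensity trend, and also with CS_0 replicate 3 and Shu_0 replicate 1 both left out, where the adjusted p reached at most 0.126, and the difference stayed above zero in both.

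Large-subunit genes had a median of 0.107, with 38 above zero and 6 below, and 12 of the 44 were higher at an unadjusted p under 0.05. Small-subunit genes had a median of 0.054, with 17 above and 8 below, and 3 of the 25 were higher at that level. The difference between the subunits was not tested. Bacterial-type was set from the number in the symbol alone, up to mRpL36 and mRpS21, so some genes may be in the wrong class. Within the large subunit the 27 bacterial-type proteins had a median of 0.131 (24 above zero) and the 17 of higher number 0.101 (14 above zero). Within the small subunit the medians were 0.054 over 13 bacterial-type proteins and 0.049 over 12 others.

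None of the 44 large-subunit genes passed the adjusted test in this comparison. The lowest p among them was that of mRpL46, a protein of the central protuberance, the knob of the large subunit, in mammalian structures. It read 93.8, 102.3 and 95.6 in CS_0 and 171.1, 135.6 and 104.2 in Shu_0. The groups did not overlap, yet the 3 mutant arrays spread widely, and the difference was 0.44 ± 0.13 (limma adjusted p = 0.0603). mRpL48 read 98.8, 73.2 and 101.2 in CS_0 and 124.7, 138.5 and 105.8 in Shu_0, a difference of 0.41 ± 0.13 (limma adjusted p = 0.0820). Without Shu_0 replicate 3, the lowest of its group for both genes, mRpL46 was called (limma adjusted p = 0.0142). Leaving out the lowest array of the higher group raises the difference. Over the 21 alternatives the difference of mRpL46 ran from 0.26 to 0.62, and its limma adjusted p reached 0.436.

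Further large-subunit genes at an unadjusted p under 0.05 were mRpL52 (0.36), mRpL39 (0.33), mRpL36 (0.28), mRpL22 (0.26), mRpL24 (0.20), mRpL20 (0.19), mRpL17 (0.18), mRpL28 (0.17), mRpL44 (0.17) and mRpL4 (0.16). Of these mRpL22, mRpL24 and mRpL4, among others, carry the names of bacterial proteins that line or border the exit tunnel. The proteins of that region were not tested as a set. In the small subunit mRpS5, of the mRNA entry region, differed by 0.20 ± 0.06 (limma adjusted p = 0.0652) and mRpS14 by 0.22 ± 0.10 (adjusted p = 0.245). On the lower side the 3 genes of lowest p were mRpL35 (-0.14), mRpL45 (-0.13) and mRpL33 (-0.09), with adjusted p of 0.390 to 0.450 by limma.

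**Figure D1:**
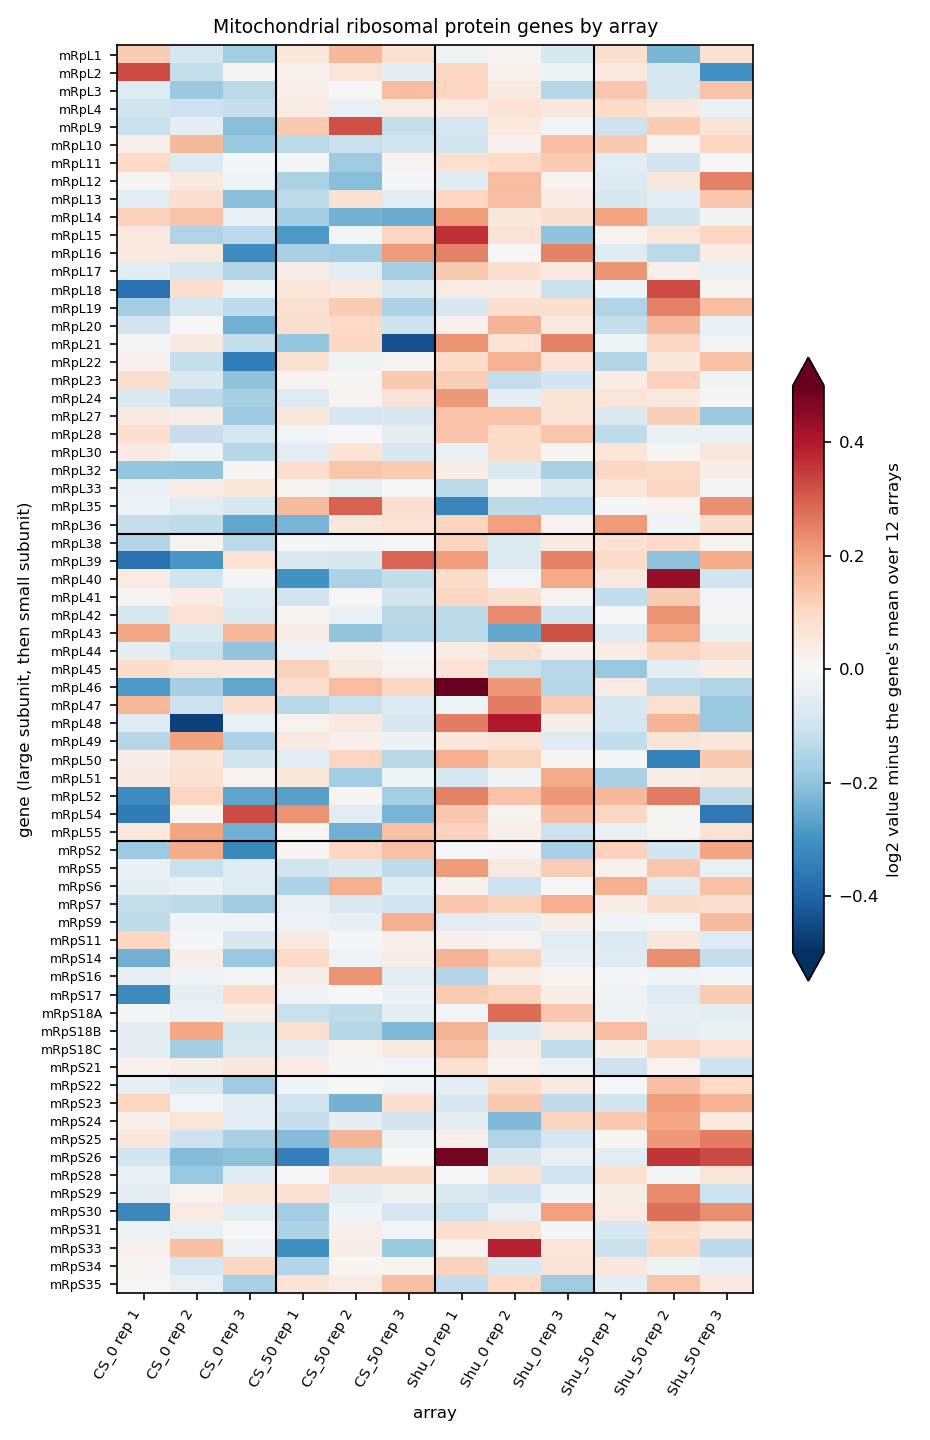
Each row is a mitochondrial ribosomal protein gene and each column an array, coloured by the gene's log2 value minus its mean over the 12 arrays (blue below, red above). Black lines part the 4 groups, the 2 subunits and, within each, the bacterial-type proteins (upper) from the others; blue is most frequent in the CS_0 columns and red in the Shu_0 columns.

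Several measures of the heads differed along with these groups. RNA quality was read from the control gene eIF-4a, as the signal near its 3' end over that near its 5' end; this log2 ratio was 2.77 (2.66 to 2.96) in CS_0 and 2.54 (2.46 to 2.65) in Shu_0, without overlap, and CS_0 replicate 3 had the highest value. For actin the ratio was 1.22 and 1.09 and for GAPDH 1.03 and 1.00, with overlapping arrays. Of the 7 fat body markers Lsd-1 (0.72) and Lsp2 (0.41) were called higher in Shu_0, with summed signals of 41278 to 47281 in CS_0 and 42355 to 51377 in Shu_0, and 1 of these calls was lost under quantile normalization. Of the 7 muscle markers sls was called lower (-0.46), with summed signals of 13775 to 14772 in CS_0 and 13469 to 14037 in Shu_0. No photoreceptor, neuron or glia marker was called in this comparison. The 11 ovary and chorion markers on the array, of which 4 passed the filter and none was called here, summed to between 58.9 and 250.2 in CS_0 and between 109 and 340 in Shu_0. The part of RNA quality and of cell make-up in the result was not tested, and in whole heads fewer cells of a type and less RNA per cell cannot be told apart.

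On lithium (Shu_50 against CS_50) the same question was asked with other arrays. The median over the 69 genes was 0.042, with 44 above zero and 25 below, beside -0.010 over all probe sets. No gene was called by limma, where the calls took 0.329% of all probe sets upward and 0.178% downward. At an unadjusted p under 0.05, 9 genes lay higher and 0 lower, against 5.32% and 6.29%. The arrays did not overlap for 11 genes, 10 of them higher in Shu_50, against 18.9%. The count of 9 was 3 without CS_50 replicate 1, 5 without CS_50 replicate 3 and 3 without Shu_50 replicate 2. The median was 0.028 over the large and 0.064 over the small subunit, so here the small subunit had the higher median of the pair. The eIF-4a ratio was 2.48 (2.43 to 2.51) in CS_50 and 2.53 (2.45 to 2.67) in Shu_50, and the arrays overlapped.

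Of the 9 genes 5 were of the small subunit by symbol. mRpS30, a protein that mammalian structures place in the large subunit in spite of its name, read 209.7, 233.3 and 223.5 in CS_50 and 244.4, 287.9 and 279.7 in Shu_50. The groups did not overlap, and the difference was 0.28 ± 0.10 (limma adjusted p = 0.280). The largest difference, 0.37 ± 0.15, was that of mRpS26, a gene singled out after its values were seen, at 74.4, 87.1 and 95.9 in CS_50 and 92.3, 124.7 and 122.6 in Shu_50. Its groups overlapped (limma adjusted p = 0.331). mRpS7 again lay higher in every mutant array, at 391.0, 382.3 and 375.5 in CS_50 and 411.7, 428.2 and 425.6 in Shu_50, a difference of 0.14 ± 0.06 (limma adjusted p = 0.339). mRpS5 differed by 0.14 ± 0.06 (adjusted p = 0.363) and mRpS24 by 0.21 ± 0.09 (adjusted p = 0.399).

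In the large subunit mRpL40, of the central protuberance in mammals, read 77.6, 86.3 and 88.5 in CS_50 and 100.3, 134.0 and 90.3 in Shu_50. The lowest mutant array lay just above the highest wild-type array, and the difference was 0.32 ± 0.12 (limma adjusted p = 0.305). mRpL14, whose bacterial counterpart lies at the face between the subunits, differed by 0.25 ± 0.09 (adjusted p = 0.298). mRpL12 (0.21) and mRpL10 (0.20) are named after the bacterial proteins that form the stalk on which translation factors dock and its base. On the lower side mRpL46 (-0.19), mRpL45 (-0.13) and mRpL1 (-0.12) had the lowest p, with limma adjusted p of 0.572 to 0.694. For mRpL46 the difference thus had the opposite sign to that without lithium.

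The genotype comparisons without and on lithium share no array, so their signs can be set side by side. Of the 69 genes 37 were higher in the mutant in both, 7 lower in both and 25 of opposite sign, so that 63.8% had the same sign, against 62.8% of all probe sets tested. Across the 69 genes the differences correlated at 0.083, against 0.338 across all probe sets; genes are not independent replicates. Of the 15 genes higher at an unadjusted p under 0.05 without lithium, 8 were also higher on lithium, and 2 of them, mRpS7 and mRpS5, at that level again. Of the 1119 such probe sets among all tested, 874 were also higher on lithium and 271 at that level again, a larger share than among these genes, and the difference of the shares was not tested.

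**Figure D2:**
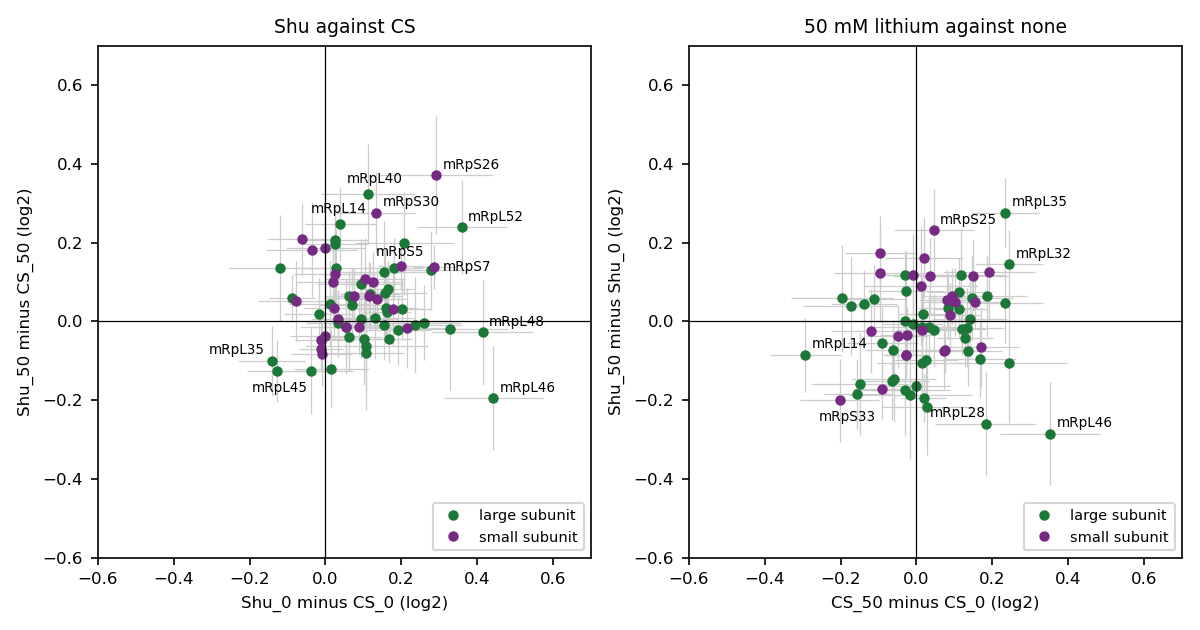
Each point is a mitochondrial ribosomal protein gene (green large, purple small subunit) and the grey bars are standard errors. Left, the difference of Shu from CS on the log2 scale without lithium (horizontal) against that on lithium (vertical); right, the difference of 50 mM lithium from none in CS (horizontal) against that in Shu (vertical). On the left 37 of 69 points lie to the upper right of both zero lines, and on the right the points spread around zero.

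Averaged over treatments, which uses all 12 arrays and those of both comparisons above, 59 genes were above zero and 10 below, with a median of 0.073, or 5.19%, beside a median under 0.01 in size over all probe sets. Called were 3 genes, all of which rose, where limma called 3.40% of all probe sets higher and 4.52% lower. At an unadjusted p under 0.05, 12 were higher and 1, mRpL45, lower, against 10.7% and 11.9%. All mutant arrays lay on one side of all wild-type arrays for 2 genes, both higher, against 3.27% of all probe sets. mRpL45, which in mammals lies by the tunnel exit and holds the ribosome to the inner membrane, differed by -0.13 ± 0.06 (limma adjusted p = 0.183).

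mRpS7 rose by 0.21 ± 0.04, or 1.16-fold (limma adjusted p = 0.00407), with all 6 mutant arrays above all 6 wild-type arrays, and it was called under each of the 20 alternatives run. mRpS5 (Entrez 3355089) read 1847, 1748 and 1808 in CS_0, 1765, 1798 and 1733 in CS_50, 2195, 1950 and 2061 in Shu_0, and 1919, 2085 and 1842 in Shu_50. Only the lowest mutant array, of Shu_50, fell below the highest wild-type array, of CS_0. mRpS5 rose by 0.17 ± 0.04, or 1.12-fold (limma adjusted p = 0.0208), and the call was lost under 4 of the 20 alternatives.

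mRpL52 (Entrez 35711), a large-subunit protein without a bacterial counterpart, read 132.2, 179.1 and 137.4 in CS_0 and 136.6, 167.1 and 147.4 in CS_50. In the mutant it read 198.5, 183.9 and 193.8 in Shu_0 and 186.3, 199.8 and 151.4 in Shu_50. Replicate 2 was the highest wild-type array in each treatment, and replicate 3 of Shu_50 lay within the wild-type range. mRpL52 rose by 0.30 ± 0.08, or 1.23-fold (limma adjusted p = 0.0375), a call lost under 11 of the 20 alternatives.

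**Figure D3:**
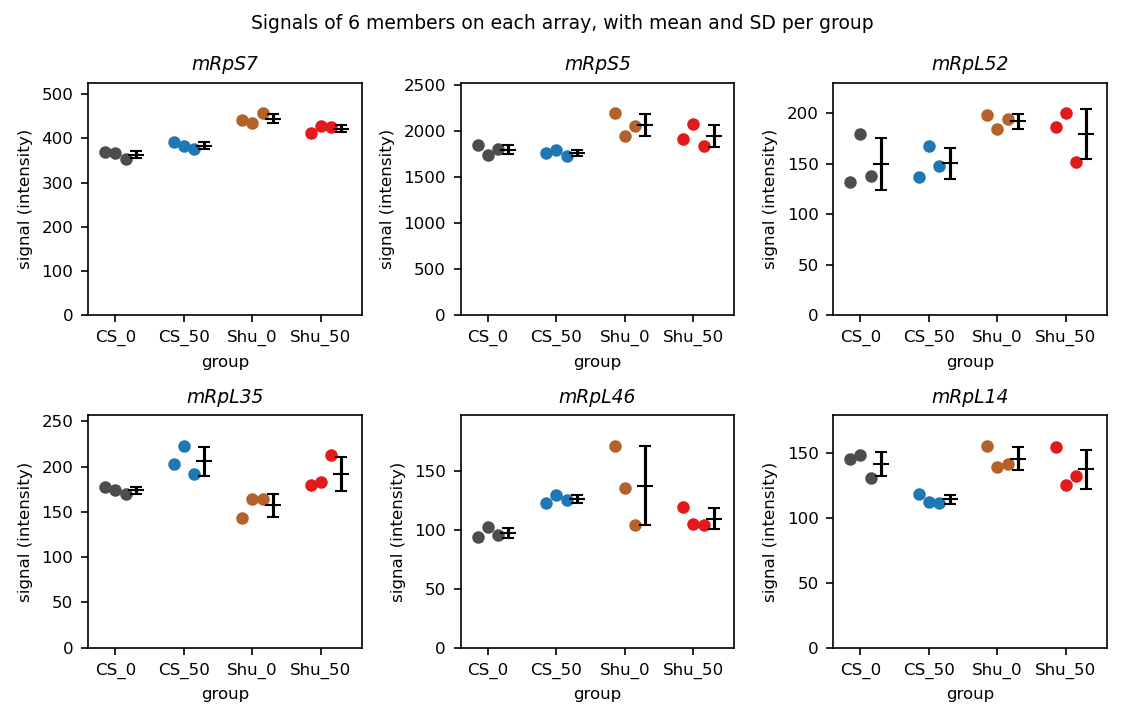
Signal (intensity units) of 6 mitochondrial ribosomal protein genes on each of the 12 arrays, with the mean and SD of each group of 3; each panel has its own vertical axis, which starts at 0. For mRpS7 all 6 Shu arrays (411.7 and above) lie above all 6 CS arrays (391.0 and below).

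Ranked by group means, 32 of the 69 genes were highest in Shu_0, 22 in Shu_50, 10 in CS_50 and 5 in CS_0, where the shares over all probe sets tested were 28.7%, 20.8%, 23.4% and 27.1%. The lowest group was CS_0 for 35 genes and CS_50 for 20. On single arrays, 14 of the 69 genes were above their own 12-array mean in CS_0 replicate 3 and 27 and 29 in the other CS_0 arrays, against 42 to 50 in Shu_0, 25 to 32 in CS_50 and 35 to 47 in Shu_50. The median deviation from the gene's own mean ran from -0.080 to -0.033 in CS_0, from -0.024 to -0.003 in CS_50, from 0.025 to 0.075 in Shu_0 and from 0.001 to 0.058 in Shu_50. All 6 Shu arrays thus lay above all 6 CS arrays in this summary, with the lowest Shu_50 array close to the highest CS_50 array. For these genes the median coefficient of variation between arrays was 6.34% in CS_0, 5.34% in CS_50, 6.55% in Shu_0 and 8.27% in Shu_50. Over all probe sets tested it was 9.61%, 8.36%, 9.71% and 9.35% in the same order. These genes lay from the 63.3 to the 97.4 percentile of mean log2, while the probe sets tested began at the 40th. No background of like signal was taken, so the lower spread is not read as a trait of these genes.

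The effect of lithium on wild-type heads came from CS_50 and CS_0. No mitochondrial ribosomal protein gene was called by limma, where the calls took 0.995% of all probe sets upward and 0.622% downward. At an unadjusted p under 0.05, 5 were higher and 1 lower, against 6.70% and 6.43%. The median was 0.019, with 41 genes above zero and 28 below, and it ran from -0.002 to 0.060 as single arrays were left out, lowest without CS_0 replicate 3. The arrays did not overlap for 15 genes, 12 of them higher, against 19.1%. The intervals of 67 of the 69 genes lay within 0.5 log2 units of zero.

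mRpL14, the gene of lowest p, read 145.3, 148.1 and 130.3 in CS_0 and 118.2, 112.3 and 111.6 in CS_50. The lithium arrays all lay below the untreated ones, with a difference of -0.29 ± 0.09 (limma adjusted p = 0.151). mRpL46 read 122.9, 129.5 and 125.0 in CS_50 against at most 102.3 in CS_0, a difference of 0.35 ± 0.13 (adjusted p = 0.232). mRpL32, whose protein is cut to its mature form by the m-AAA protease in yeast and mouse, differed by 0.24 ± 0.09 (adjusted p = 0.214). The other rule-named genes were mRpL35 (0.23), mRpS33 (-0.20) and mRpL47 (-0.16). The eIF-4a ratio was lower in CS_50 (2.48) than in CS_0 (2.77) without overlap, and its part in these values was not tested.

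The effect of lithium on mutant heads came from Shu_50 and Shu_0. Again no gene was called by limma, where the calls took 1.21% of all probe sets upward and 0.648% downward, and 2 were higher and 3 lower at an unadjusted p under 0.05, against 5.85% and 6.05%. The median was -0.015, with 32 genes above zero and 37 below, and it was 0.010 without Shu_50 replicate 1. The arrays did not overlap for 5 genes, 4 of them lower, against 15.8%. mRpL28 read 785.9, 762.2 and 784.4 in Shu_0 and 650.5, 694.1 and 692.5 in Shu_50. All lithium arrays lay below the untreated ones, and the difference was -0.19 ± 0.06 (limma adjusted p = 0.147). The other genes of lowest p were mRpL35 (0.28), mRpL46 (-0.29), mRpS25 (0.23), mRpS18A (-0.17) and mRpL33 (0.12).

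The lithium comparisons of the wild type and the mutant share no array either. Of the 69 genes 22 were higher in both, 18 lower in both and 29 of opposite sign (58.0% of the same sign, against 58.1% of all probe sets), and the differences correlated at 0.148 across these genes, against 0.273 across all probe sets. Averaged over genotypes 1 gene was called, which rose, where the calls took 2.39% of all probe sets upward and 1.74% downward. At an unadjusted p under 0.05, 2 were higher and 4 lower, against 7.92% and 8.30%, and the median was 0.012. The lithium and the untreated arrays of both genotypes did not overlap for 1 gene, against 2.10% of all probe sets.

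The gene called was mRpL35, a small bacterial-type protein of the large subunit. The gene (Entrez 42588) read 177.6, 173.9 and 169.9 in CS_0 and 202.5, 223.3 and 191.9 in CS_50. In the mutant it read 142.9, 164.6 and 164.3 in Shu_0 and 179.5, 183.2 and 213.0 in Shu_50. All 6 lithium arrays lay above all 6 untreated arrays, also within each genotype. mRpL35 rose by 0.26 ± 0.06, or 1.19-fold (limma adjusted p = 0.0269), made of 0.23 ± 0.09 in the wild type (adjusted p = 0.244) and 0.28 ± 0.09 in the mutant (adjusted p = 0.166). The call was lost under 7 of the 20 alternatives, among them the omission of CS_0 replicate 2, CS_0 replicate 3, CS_50 replicate 2, Shu_0 replicate 1 or Shu_50 replicate 3. Markers of other cells moved with lithium too: of the 7 fat body markers apolpp (-0.41) and Tsf1 (-0.54) fell on average over genotypes, as did Mlc2 (-0.27) of the muscle, wrapper (-0.63) of the glia, Gbeta76C (-0.19) of the photoreceptors and dhd (-1.19) of the ovary list, while sls (0.29) of the muscle rose. The call of Gbeta76C was lost under quantile normalization, where the median of the photoreceptor markers turned from -0.100 to 0.020. Fbp1 of the fat body list went the other way. Its mean signal was 6.8 in CS_0, 14.0 in CS_50, 14.6 in Shu_0 and 25.5 in Shu_50. With lithium in the wild type 5 of the 7 fat body markers were below zero and 2 above. Their median there was -0.294, and -0.006 under quantile normalization. The 7 fat body markers summed to 41278 to 47281 in CS_0, 34592 to 36637 in CS_50, 42355 to 51377 in Shu_0 and 36010 to 45127 in Shu_50, and their part in the result was not tested.

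Also named by the rule were mRpL32 at 0.19 ± 0.06 (limma adjusted p = 0.101), mRpL14 at -0.19 ± 0.07 (adjusted p = 0.145), mRpL47 at -0.17 (0.166), mRpS33 at -0.20 (0.167) and mRpS28 at 0.10 (0.320). mRpL47 has a further probe set, whose lithium difference was 0.04 when averaged and 0.09 in the wild type, so that its probe sets disagreed in sign. The 2 probe sets of mRpS11 gave -0.03 and -0.11 between genotypes on average, and neither was called in any comparison. On lithium the one not chosen for the gene differed between genotypes by -0.18 (limma unadjusted p = 0.0496). The counts of genes above use only the chosen probe set.

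The interaction asked whether lithium acted differently in the mutant and the wild type. No mitochondrial ribosomal protein gene was called by limma, where the calls took 0.00888% of all probe sets upward and 0% downward. At an unadjusted p under 0.05, 3 lay lower and 0 higher, against 3.79% and 2.94%. The median was -0.050, with 47 genes below zero and 22 above. It was -0.027 under quantile normalization, with 41 below and 28 above, and -0.017 with CS_0 replicate 3 and Shu_0 replicate 1 both left out. The standard errors are larger here, at a median of 0.131, and 57 of the 69 intervals lay within 0.5 log2 units of zero. mRpL46 had the largest value, -0.64 ± 0.18 (limma adjusted p = 0.647). Its signal in Shu_50 was 119.4, 104.7 and 103.9, against 171.1, 135.6 and 104.2 in Shu_0. Lithium arrays thus lay above the untreated ones in the wild type and overlapped them in the mutant. mRpL48 had -0.44 ± 0.19, mRpL28 -0.21 ± 0.08 and mRpS24 0.27 ± 0.13, with adjusted p of 0.713 to 0.742.

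Mitoribosomal genes whose symbols do not start with mRp were measured as well. tko read between 244 and 275 in CS_0 and between 252 and 312 in Shu_0, and bonsai, which encodes the small-subunit protein S15, between 197 and 219 and between 206 and 244. Neither was called in any comparison. Without lithium tko differed between genotypes by 0.11 ± 0.08 (limma adjusted p = 0.473) and bonsai by 0.12 ± 0.08 (adjusted p = 0.448).

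Of the 10 mitochondrial translation factors tested, 1 was called in any comparison: mEFTu1, the elongation factor that delivers aminoacyl-tRNA to the ribosome, singled out after its values were seen. It read 206, 260 and 212 in CS_0 and 266, 267 and 290 in CS_50, and 254, 237 and 205 in Shu_0 and 289, 251 and 282 in Shu_50. The arrays with and without lithium overlapped by a little in the mutant. mEFTu1 rose by 0.26 ± 0.07 with lithium averaged over genotypes (limma adjusted p = 0.0441), and no translation factor was called under quantile normalization. None of the 14 mitochondrial tRNA synthetases was called by limma, and without lithium 13 of them were above zero between genotypes, with a median of 0.082 and 1 at an unadjusted p under 0.05. On lithium 7 were above zero and 7 below, with a median of 0.0005. Under quantile normalization 10 were above zero in each comparison, with medians of 0.076 without and 0.028 on lithium. None of the 12 genes of mitochondrial transcription and genome maintenance was called by limma either, with 1 at an unadjusted p under 0.05 between the untreated genotypes.

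The subunits of oxidative phosphorylation, the complexes that the mitoribosome's products join, had 56 genes tested of 91 in the list. Between the untreated genotypes 4 rose and none fell, among them ND-B18 of complex I (0.35 ± 0.05, limma adjusted p = 0.00238) and COX4 of complex IV (0.23 ± 0.06, adjusted p = 0.0310). Their median of 0.106 stood beside 0.094 for the mitochondrial ribosomal proteins, and under quantile normalization 8 rose and the median was 0.099. On lithium ND-B18 alone was called between genotypes (0.27 ± 0.05, adjusted p = 0.0338), and the list's median of 0.082 became 0.019 under quantile normalization. With lithium in the wild type ATPsyngamma (-0.24) and COX7B (-0.27) fell, both calls lost under quantile normalization, and the median was -0.060 beside 0.019 for the mitochondrial ribosomal proteins. Under quantile normalization these medians were -0.012 and 0.004.

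The cytosolic ribosome served as the other comparison, with 36 genes tested. With lithium in the wild type RpL41 fell (-0.30 ± 0.07, limma adjusted p = 0.0376), a call lost under quantile normalization, and the list's median of -0.135 turned to 0.037 there, so no direction is given. For the mitochondrial ribosomal proteins the genotype medians kept their sign under quantile normalization, at 0.079 without lithium and 0.057 on lithium. The upward lean between genotypes was not particular to them. Those of the oxidative phosphorylation subunits kept their sign too, at 0.099 and 0.019. For the cytosolic list the genotype medians were 0.029 without lithium and 0.115 on lithium, where 32 of 36 genes were above zero. Under quantile normalization they were 0.023 and -0.015. Averaged over treatments the medians were 0.069 for the cytosolic and 0.102 for the oxidative phosphorylation genes. By array, the median deviation of the oxidative phosphorylation genes was lowest in CS_50 (-0.098 to -0.074), and that of the mitochondrial ribosomal proteins was lowest in CS_0.

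**Figure D4:**
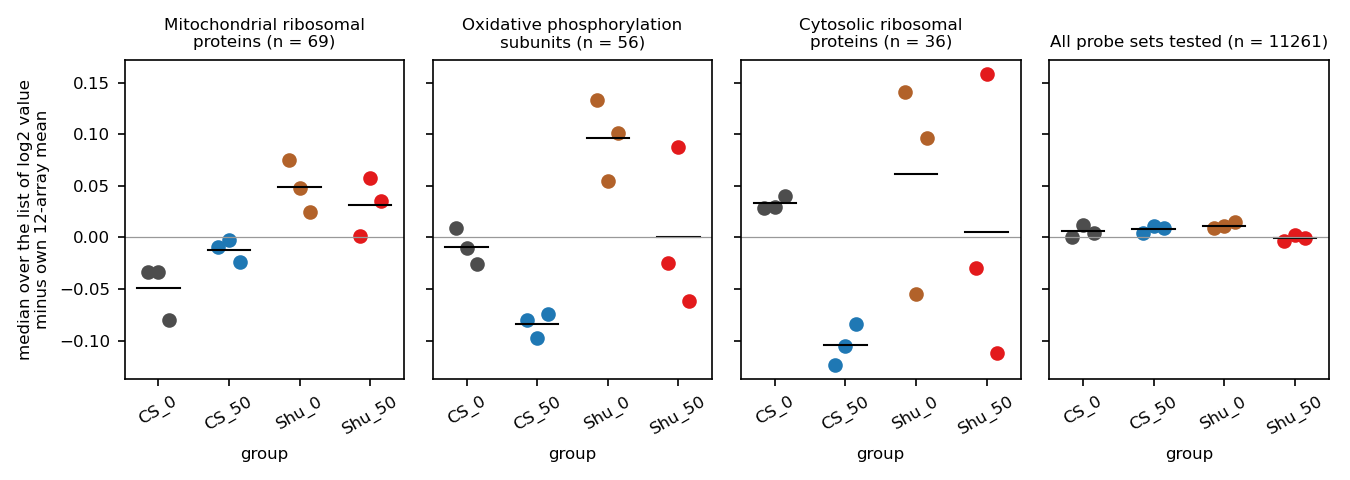
Each point is an array, and its height is the median over a list of the log2 value minus the gene's own 12-array mean; lines are group means of the 3 arrays. For the 69 mitochondrial ribosomal proteins all Shu arrays (0.001 and above) lie above all CS arrays (-0.003 and below), while the Shu_50 arrays of the cytosolic ribosomal proteins range from -0.112 to 0.158.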

How the data were processed

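The authors' deposited values were read as linear intensity, 1 column per array, in which every column had a mean of 150.005 after trimming 2% at each end. Per the labels' protocols total RNA was labelled with a standard Affymetrix protocol; the software and the extraction are not given in the sources used here. Of 18952 probe sets 183 were controls. The deposited intensity was taken as log2(intensity + 6.26), the offset being the 25th percentile, and probe sets at or above the 40th percentile of mean log2 (a signal of 11.5) were tested, 11261 in all. The array annotation gave the gene names, which were updated by gene number to genome release 6 for 13544 of 13647 single-gene probe sets. Another 2 probe sets name a mitochondrial ribosomal protein together with another gene and were not used.

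Group means of all 12 arrays were fitted with limma 3.58.1 in R 4.3.3 (lmFit, eBayes with trend, 8 residual degrees of freedom, two-sided). Figures used matplotlib 3.10.9 in Python 3.11.15. The procedure was tested on simulated data. Genes were named by rule: those called, the 3 of lowest p in each direction of a comparison (4 in the interaction), genes with probe sets that disagree, up to 2 called genes of each related list in the 4 group comparisons, and tko, bonsai and para always. Outside the rule, other genes at an unadjusted p under 0.05, markers called in an averaged comparison, Fbp1 and mEFTu1 were added after their values were seen. The genes, lists and rules were chosen with earlier results of these data known. A planned list of assembly factors was left out because some of its identifiers belong to other genes. The alternatives were quantile normalization, no or double offset, no or a stricter filter (60th percentile), no trend, a contrast's arrays alone, a replicate term and arrays left out.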

Additional observations from a re-analysis of the deposited data

How the results depend on the processing

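The medians between genotypes stayed above zero under every alternative run. Between the untreated genotypes the 1 gene called became 2 under quantile normalization, 3 with the filter at the 60th percentile, 0 without the intensity trend, and 0 without CS_0 replicate 3 and Shu_0 replicate 1 together, where the genes higher at an unadjusted p under 0.05 numbered 6 instead of 15 and the interaction median was -0.017. These 2 arrays were picked as the extremes of the first principal component, on which all CS arrays lay below zero and all Shu arrays above. Leaving them out thus removes the CS and the Shu array farthest apart by genotype, and also lowers the number of arrays. The 2 effects cannot be told apart here. For lithium averaged over genotypes the 1 call became 0 without the trend and 2 with a replicate block. For genotype averaged over treatments the 3 calls became 1 without the trend, 5 with a replicate block and 1 without the 2 arrays together. The labels number the replicates but do not say that same-numbered arrays were handled together. Same-numbered arrays of different groups correlated at -0.065 to 0.092 over 18 pairs, and 10 of 12 arrays correlated best with their own number. Whether arrays of the same number share an effect was not tested.

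Leaving out each array in turn gave 1 to 2 calls between the untreated genotypes, 10 to 15 genes higher at an unadjusted p under 0.05 and medians of 0.078 to 0.110. On lithium it gave 3 to 10 such genes and medians of 0.031 to 0.058. For genotype averaged it gave 1 to 4 calls (1 without CS_50 replicate 3 or Shu_0 replicate 1), 9 to 14 such genes and medians of 0.064 to 0.093. For lithium averaged it gave 0 to 1 calls and medians of -0.004 to 0.035. The lithium medians ran from -0.0015 to 0.060 in the wild type and from -0.026 to 0.010 in the mutant, and the interaction median from -0.072 to -0.032. No gene was called by limma in the lithium comparisons of single genotypes, in genotype on lithium or in the interaction when any 1 array was left out. Of the values for named genes under all alternatives, 792 kept direction and side of the threshold, 24 lost and 8 gained a call, and none changed sign. Most of these values were of genes not called in the main fit and picked by p, so the pooled count says little about stability. The 24 losses all fell on called results: 2 of 21 for mRpS7 without lithium, 7 of 20 for mRpL35, 11 of 20 for mRpL52 and 4 of 20 for mRpS5. The median standard error of these genes was 0.093 in a comparison of 2 groups, and signal over background could not be taken from the deposited values.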
